A study of Homo sapiens with 12 samples.

Results

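Neural rosettes are rings of polarised neuroepithelial cells around a small lumen, and are the form that neural progenitors take when human pluripotent stem cells are turned towards the neural fate in culture. Such progenitors are recognised by intermediate filaments, RNA-binding proteins, lipid carriers, apical membrane proteins, nuclear regulators and surface receptors. The 10 genes described here are of these kinds: NES, VIM, MSI1, MSI2, FABP7, PROM1, DACH1, ZBTB16, LIX1 and PRTG. Some of them, such as VIM and PROM1, were not low before differentiation, as the values below show. The 10 were chosen by gene name as early neural progenitor and rosette genes outside the SOX, ZIC, PAX and POU families. This choice, and that of the lists below, was made with earlier results of these data known. Counts of these genes that passed are therefore descriptions and test no enrichment. All 10 were among the 58219 genes of the deposited table and among the 24248 that had at least 1 TPM (transcripts per 1e+06 transcripts) in at least 2 libraries and were tested.

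The study asked what SOX21, a transcription factor of neural progenitors, does early in the neural differentiation of H9 cells, a long-established line of human embryonic stem cells. Poly(A) RNA was sequenced at days 0, 4 and 8 of differentiation in 12 libraries: S13 and S23, labelled SOX21-/-, and WT1 and WT2, labelled wild type, at each day. No other allele or treatment is given for either genotype. Whether S13 and S23 are separate clones, and whether the 2 libraries of a group came from separate cultures, is not given, so the p-values below measure only the spread between these libraries. The values are shares of a fixed total, which leaves the number of reads behind them unknown.

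SOX21 itself had 1.62 and 1.84 TPM in the SOX21-/- libraries S13 and S23 against 1.26 and 1.39 TPM in wild type at day 0. Its values were 162 and 143 TPM in SOX21-/- against 156 and 166 TPM in wild type at day 4, then 253 and 69.9 TPM in SOX21-/- against 129 and 100 TPM in wild type at day 8. It did not pass the test at any day (limma, adjusted p = 1, 1 and 0.898 at days 0, 4 and 8). The labels do not say which part of the gene was altered, so this level does not check them, and SOX21-/- below means libraries so labelled. In each pair of values S13 stands before S23 and WT1 before WT2. The 2 libraries of a group had a Pearson r of 0.954 to 0.962 over the genes tested, a description across genes. Of the 9 pluripotent cell markers listed, 8 in SOX21-/- and 9 in wild type averaged at least 1 TPM at day 0. Their sum was then 2460 and 2490 TPM in SOX21-/- against 2650 and 2590 TPM in wild type. At day 4 the sum was 263 and 247 TPM in SOX21-/- against 326 and 349 TPM in wild type, without overlap. By day 8 it was 152 and 196 TPM in SOX21-/- against 184 and 203 TPM in wild type. Between genotypes 0 of the 9 passed at any day, and 3 were at an unadjusted p under 0.05 (limma) at day 4. Their median log2 fold change at day 4 was -0.06, beside -0.12 over all genes tested. The share of all TPM in nuclear protein-coding genes was 55.9% to 56.4% at day 0 and between 83.5% and 87.1% at the later days, at which the genotypes overlapped. A step between days 0 and 4 therefore carries a shift of all genes, which is given beside it.

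At day 8, 3 of the 10 genes passed between genotypes, against 2.79% of all genes tested: DACH1 and MSI1 were higher and PRTG was lower in SOX21-/- than in wild type. At day 4, 2 of 10 passed, against 0.775% of all genes, with VIM higher and ZBTB16 lower in SOX21-/-, both just inside the threshold. At day 0, 0 of 10 passed, against 0.384%; 2 of 10 were at an unadjusted p under 0.05 (limma), against 5.88% of all genes. In time, 9 of 10 were higher at day 4 than at day 0 in both genotypes as deposited, where 48.1% of all genes rose in SOX21-/- and 54.3% in wild type (60.6% and 65.7% changed in either direction). PROM1 was the exception, and for MSI2 the direction in SOX21-/- depended on the scaling. In bulk RNA, fewer cells of a kind and less RNA per cell cannot be told apart in any of these differences. The calls were made with limma on log2(TPM + 1), two-sided, with Benjamini-Hochberg adjustment over all 24248 genes and a threshold of 0.05; fold changes are on that scale, which understates changes of low genes.

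**Figure D1:**
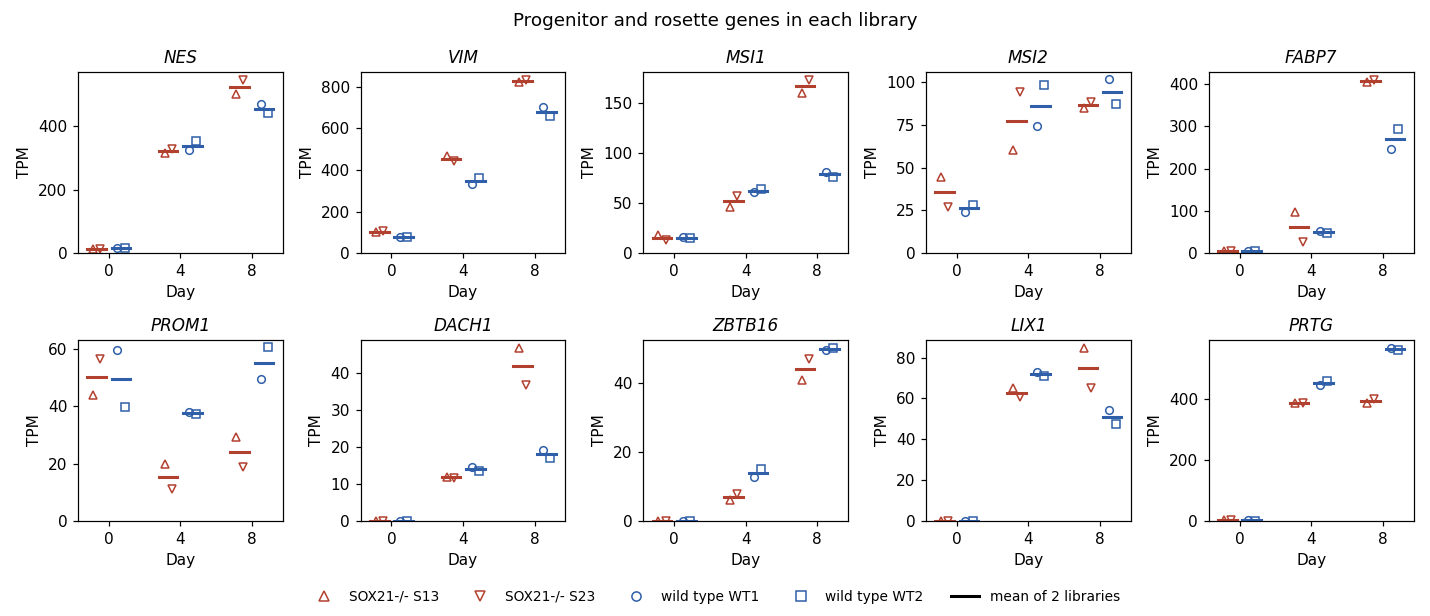
Each panel plots one gene's TPM (linear axis from 0) in all 12 libraries by day, with SOX21-/- libraries (red triangles) left of wild type (blue circles and squares) and a bar at the mean of 2 libraries. DACH1 and MSI1 part between the genotypes at day 8, and PROM1 is the only panel without its lowest values at day 0.

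The DNA just ahead of a gene's start is shown for DACH1 and PRTG, the called genes at day 8 that moved in opposite directions and have an entry in the RefSeq promoter table (GRCh38.p14); 7 of the 10 genes have one, and MSI1, ZBTB16 and LIX1 were not matched. Each stretch is the 250 bases before the annotated start, read on the gene's own strand, chr13:71867205-71867454 (minus) for DACH1 and chr15:55743153-55743402 (minus) for PRTG. Capitals mark the only match of the motifs searched, which were ACAATG and ACAAAG (core letters bound by SOX factors), TGGGAA (RBPJ) and ATTTGCAT (the POU octamer), on both strands.
DACH1: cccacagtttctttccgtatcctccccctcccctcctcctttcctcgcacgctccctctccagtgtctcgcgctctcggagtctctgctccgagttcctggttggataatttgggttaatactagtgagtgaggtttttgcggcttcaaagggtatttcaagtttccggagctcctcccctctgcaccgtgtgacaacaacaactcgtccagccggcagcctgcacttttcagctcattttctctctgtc
PRTG: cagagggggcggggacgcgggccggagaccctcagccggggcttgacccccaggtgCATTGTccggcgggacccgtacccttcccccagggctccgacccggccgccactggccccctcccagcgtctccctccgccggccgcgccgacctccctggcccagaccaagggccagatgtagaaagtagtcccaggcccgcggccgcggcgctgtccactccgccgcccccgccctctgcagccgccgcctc
The PRTG stretch held CATTGT, the reverse complement of ACAATG, from 194 to 189 bases before the start, and the DACH1 stretch held none of the 4 motifs. Of 35116 promoters searched over the same length, 9.29% held ACAATG, 13.7% ACAAAG, 20.8% TGGGAA and 1.63% ATTTGCAT on either strand. Among the other members with an entry, FABP7 held ACAAAG, and NES, VIM, PROM1 and MSI2 held none. The FABP7 stretch (chr6:122779466-122779715, plus strand) precedes a RefSeq start within the gene's GENCODE span, and most of it lies inside that span. The G and C content was 54.0% for DACH1 and 76.8% for PRTG, with a median of 58.0% over the 35116 promoters searched. A match is a run of letters and was not tested for binding. Other letters that SOX factors may bind were not searched, so a stretch without a match may still hold them.

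NES and VIM encode intermediate filament proteins. Nestin is the filament by which neural progenitors are most often identified, and vimentin is its partner in them but is also made by mesenchymal cells. NES (ENSG00000132688.10) lies at chr1:156668763-156677397, minus strand, and VIM (ENSG00000026025.15) at chr10:17228259-17237593, plus strand (GRCh38, GENCODE v29, as for all positions of genes here). At day 0, NES had 13.4 and 12.3 TPM in SOX21-/- against 15.6 and 16.2 TPM in wild type. At day 4 it had 315 and 328 TPM in SOX21-/- against 324 and 353 TPM in wild type. By day 8 it had 501 and 545 TPM in SOX21-/- against 470 and 441 TPM in wild type. NES was thus lower in both SOX21-/- libraries at day 0, overlapped at day 4, and was higher in both at day 8, but no comparison of genotypes passed. At day 8 the log2 fold change was 0.20 (SE 0.0789, 95% interval 0.02 to 0.38, adjusted p = 0.259).

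VIM was above both wild-type libraries in both SOX21-/- libraries at every day. It had 102 and 106 TPM in SOX21-/- against 80.4 and 79.1 TPM in wild type at day 0. At day 4 VIM had 468 and 441 TPM in SOX21-/- against 333 and 360 TPM in wild type, and at day 8 it had 823 and 834 TPM in SOX21-/- against 702 and 661 TPM in wild type. The log2 fold changes, SOX21-/- over wild type, were 0.38 (SE 0.0646), 0.39 and 0.28 at days 0, 4 and 8, with adjusted p = 0.0741, 0.0469 and 0.0622 (limma). The groups did not overlap at any day, and only the day 4 difference passed. That call ended without any 1 of the 12 libraries (adjusted p from 0.0642 to 0.165), while the log2 fold change stayed between 0.33 and 0.57 under all 22 alternatives. The change of the difference between days 4 and 8 was -0.11 (95% interval -0.32 to 0.10). The 9 mesenchyme and fibroblast markers summed to 40.6 and 43.9 TPM in SOX21-/- against 36.4 and 41.9 TPM in wild type at day 0, 16.7 and 8.34 TPM in SOX21-/- against 13.4 and 17.2 TPM in wild type at day 4, and 46.6 and 58.8 TPM in SOX21-/- against 30.3 and 31.1 TPM in wild type at day 8. Their sum thus stood apart only at day 8, where 5 of the 9 averaged at least 1 TPM in each genotype. None of the 6 tested passed between genotypes at any day, and 3 and 4 were at an unadjusted p under 0.05 at days 4 and 8. Their median log2 fold change at day 8 was 0.704, beside 0 over all genes tested. Their part in the VIM values was not tested. In 11 other tested intermediate filament and lamin genes, 0 passed between genotypes at any day, with 2, 1 and 1 at an unadjusted p under 0.05 at days 0, 4 and 8.

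MSI1 and MSI2 encode Musashi RNA-binding proteins, which control the translation of bound mRNAs in neural stem cells. MSI1 (ENSG00000135097.6) lies at chr12:120341330-120369180, minus strand, and MSI2 (ENSG00000153944.10) at chr17:57255851-57684685, plus strand. MSI1 had 17.9 and 13.1 TPM in SOX21-/- against 15.8 and 14.8 TPM in wild type at day 0. At day 4 MSI1 had 46.6 and 57.4 TPM in SOX21-/- against 60.8 and 64.1 TPM in wild type. At day 8 it had 160 and 173 TPM in SOX21-/- against 81.5 and 76.5 TPM in wild type. In TPM as deposited, the genotypes overlapped at day 0 and SOX21-/- was a little lower at day 4. The day 4 log2 fold change was -0.27, and -0.09 with median-of-ratios scaling. At day 8 MSI1 averaged 167 ± 9.54 TPM in SOX21-/- and 79.0 ± 3.57 TPM in wild type (SD, n = 2 each). The day 8 difference passed, with a log2 fold change of 1.07 (SE 0.15, limma adjusted p = 0.0101). It no longer passed without WT2 (0.0782) or S23 (0.0725) at day 8, or when only day 8 libraries were fitted (0.0992), with log2 fold changes of 1.02, 1.01 and 1.07.

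MSI2 did not share this pattern. It had 44.8 and 26.8 TPM in SOX21-/- against 24.3 and 28.1 TPM in wild type at day 0, 60.1 and 94.3 TPM in SOX21-/- against 74.0 and 98.3 TPM in wild type at day 4, and 84.6 and 88.4 TPM in SOX21-/- against 102 and 86.9 TPM in wild type at day 8. The genotypes overlapped at every day, and the day 8 log2 fold change was -0.12 (95% interval -0.75 to 0.51, adjusted p = 0.913). The ratio of MSI1 to MSI2 was 1.89 and 1.96 in SOX21-/- at day 8 against 0.799 and 0.88 in wild type. At day 4 it was 0.775 and 0.608 in SOX21-/- against 0.821 and 0.652 in wild type. The ratio is free of any common scaling of a library, and above 1 it was found only in the SOX21-/- libraries of day 8 among the 12.

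FABP7 encodes brain lipid-binding protein, a fatty acid carrier of radial glia, and PROM1 encodes prominin (CD133), a membrane protein of apical protrusions of neuroepithelial cells. FABP7 (ENSG00000164434.11) lies at chr6:122779475-122784074, plus strand, and PROM1 (ENSG00000007062.11) at chr4:15963076-16084378, minus strand. FABP7 had 4.98 and 6.11 TPM in SOX21-/- against 6.21 and 5.70 TPM in wild type at day 0. At day 4 FABP7 had 98.5 and 26.5 TPM in SOX21-/- against 52.8 and 48.3 TPM in wild type, so that the 2 SOX21-/- libraries lay on either side of wild type. By day 8 it had 406 and 409 TPM in SOX21-/- against 246 and 295 TPM in wild type. The SOX21-/- libraries were above wild type at day 8, while the error of the comparison is shared by all groups and so takes in the split at day 4. The day 8 log2 fold change of 0.59 (SE 0.47, 95% interval -0.48 to 1.67) did not pass (adjusted p = 0.611). Without S13 at day 4 the day 4 log2 fold change was -0.90 (adjusted p = 0.0769), and without S23 it was 0.95 (0.0477). The change of the genotype difference between days 4 and 8 was 0.57 in the main fit (limma adjusted p = 0.753). It was 1.496 without S13 at day 4 and -0.36 without S23 at day 4.

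PROM1 had 43.8 and 56.5 TPM in SOX21-/- against 59.4 and 39.7 TPM in wild type at day 0. At day 4 PROM1 had 19.8 and 11.2 TPM in SOX21-/- against 37.8 and 37.3 TPM in wild type. At day 8 it had 29.1 and 18.8 TPM in SOX21-/- against 49.4 and 60.6 TPM in wild type. The genotypes overlapped at day 0 and lay apart at days 4 and 8, with SOX21-/- the lower. The log2 fold changes of -1.27 (SE 0.309) at day 4 and -1.19 at day 8 were the widest of the 10 genes at those days, yet neither passed (adjusted p = 0.103 and 0.0904). Among the 22 alternatives the day 8 difference passed only with values rescaled to nuclear protein-coding genes (-1.21, limma adjusted p = 0.0384). The day 4 difference passed in none of them.

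DACH1 and ZBTB16 encode nuclear regulators. DACH1, the human counterpart of the fly gene dachshund, acts on transcription with partner factors, and ZBTB16 (PLZF) is a zinc finger repressor; both are used as marks of early rosette cells. DACH1 (ENSG00000276644.4) lies at chr13:71437966-71867192, minus strand, and ZBTB16 (ENSG00000109906.13) at chr11:114059593-114250676, plus strand. DACH1 had 0.151 and 0.119 TPM in SOX21-/- against 0.0661 and 0.0505 TPM in wild type at day 0. At day 4 DACH1 had 11.9 and 11.7 TPM in SOX21-/- against 14.5 and 13.6 TPM in wild type. By day 8 it had 46.7 and 36.8 TPM in SOX21-/- against 19.1 and 17 TPM in wild type. In TPM as deposited, SOX21-/- was thus a little below wild type at day 4. The day 4 log2 fold change was -0.24, and -0.07 with median-of-ratios scaling. At day 8 SOX21-/- was above wild type without overlap, at 41.8 ± 7.01 TPM in SOX21-/- against 18.1 ± 1.5 TPM in wild type (SD, n = 2 each). The day 8 log2 fold change was 1.16 (SE 0.147, limma adjusted p = 0.00642). It did not pass without WT2 at day 8 (1.08, adjusted p = 0.0579) or when only day 8 libraries were fitted (0.211).

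ZBTB16 had 0.0121 and 0.0451 TPM in SOX21-/- against 0.110 and 0.0116 TPM in wild type at day 0. At day 4 ZBTB16 had 6.01 and 7.91 TPM in SOX21-/- against 12.9 and 15.2 TPM in wild type. At day 8 it had 40.8 and 47.0 TPM in SOX21-/- against 49.5 and 50.0 TPM in wild type. Both SOX21-/- libraries were the lower at days 4 and 8, with a log2 fold change of -0.92 (SE 0.16) that passed at day 4 (limma adjusted p = 0.0493). At day 8 the log2 fold change was -0.18 (95% interval -0.55 to 0.19, adjusted p = 0.659). The day 4 call ended without any 1 of 11 libraries (adjusted p up to 0.25, without WT2 at day 4), S23 at day 4 being the exception, and under 8 of the 10 other alternatives. Its direction held in all 22, between -1.10 and -0.67. In TPM as deposited, DACH1 and ZBTB16 lay on the same side of wild type at day 4 and on opposite sides at day 8. However, DACH1 at day 4 (limma adjusted p = 0.464) and ZBTB16 at day 8 did not pass.

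LIX1, named for its expression in the limb bud of the chick, is also found in neural progenitors. It lies at chr5:97091867-97142872, minus strand (ENSG00000145721.11). LIX1 had 0.0964 and 0.161 TPM in SOX21-/- against 0.0365 and 0.0242 TPM in wild type at day 0. At day 4 LIX1 had 65.1 and 60.7 TPM in SOX21-/- against 73.1 and 71.1 TPM in wild type. By day 8 it had 84.5 and 65.2 TPM in SOX21-/- against 54.3 and 47.3 TPM in wild type. In TPM as deposited, the genotypes changed places between days 4 and 8 without overlapping at either day. Neither difference passed, with log2 fold changes of -0.19 (adjusted p = 0.531) and 0.54 (SE 0.138, 95% interval 0.22 to 0.86, adjusted p = 0.0862), nor did the change between them (0.74, SE 0.195, adjusted p = 0.12). The day 4 median over all genes was -0.12, and with median-of-ratios scaling the day 4 value of LIX1 was -0.02.

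PRTG encodes protogenin, a transmembrane receptor of the immunoglobulin superfamily related to DCC and neogenin, and is made in the early neural tube of mouse and chick embryos. It lies at chr15:55611546-55743090, minus strand (ENSG00000166450.12). PRTG had 2.22 and 1.99 TPM in SOX21-/- against 2.39 and 1.85 TPM in wild type at day 0. At day 4 PRTG had 389 and 387 TPM in SOX21-/- against 447 and 459 TPM in wild type. At day 8 it had 387 and 402 TPM in SOX21-/- against 567 and 561 TPM in wild type. The groups overlapped at day 0 and lay apart at days 4 and 8, and the SOX21-/- libraries of those days overlapped. The day 8 difference passed, at 394 ± 11 TPM in SOX21-/- and 564 ± 4.43 TPM in wild type (SD, n = 2 each), a log2 fold change of -0.51 (SE 0.0896, limma adjusted p = 0.0236). The call ended without any 1 of the 4 day 8 libraries (adjusted p = 0.0965 without S13, 0.0871 without S23, 0.1 without WT1 and 0.124 without WT2), with a log2 fold change between -0.54 and -0.49. It also ended with a pseudocount of 0.1 (0.067), without the variance trend (0.072) and with day 8 libraries alone (0.151).

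Of the 10, 4 were at an unadjusted p under 0.05 at day 4, against 16.9% of all genes, and 7 at day 8, against 16.3%. The median log2 fold change of the 10 was 0.02, -0.21 and 0.24 at days 0, 4 and 8, beside 0, -0.12 and 0 over all genes tested. The calls at day 8 thus ran both ways within the set. The summed TPM of the 10 was 2562 and 2621 in SOX21-/- at day 8 against 2341 and 2296 in wild type, and 1480 and 1426 in SOX21-/- against 1429 and 1520 in wild type at day 4.

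**Figure D2:**
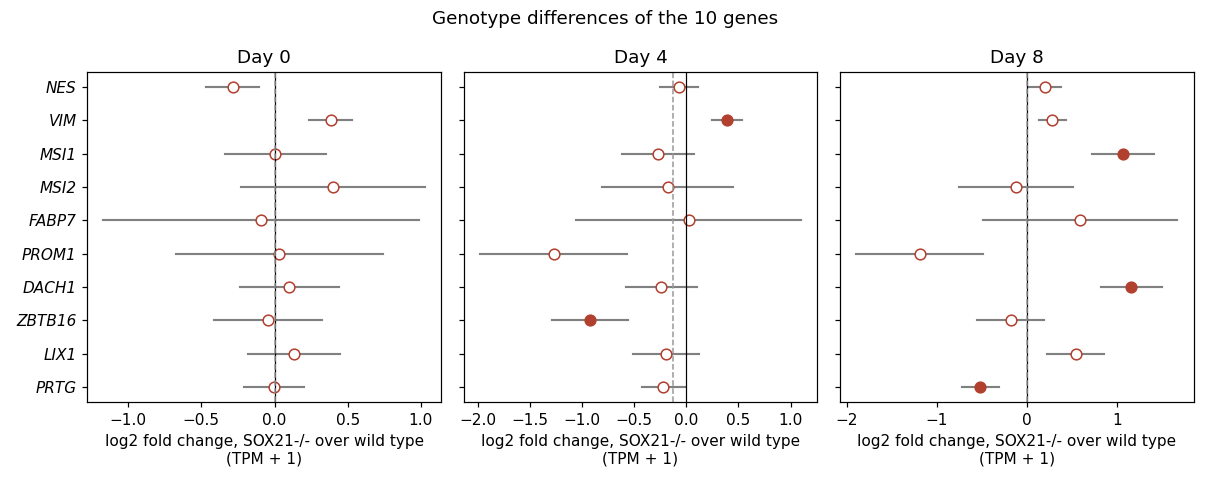
Points are log2 fold changes of TPM + 1, SOX21-/- over wild type, at days 0, 4 and 8, with 95% intervals as bars; filled points passed at an adjusted p under 0.05 and the dashed line is the median of all genes tested. VIM lies between 0.28 and 0.39 in all 3 panels, whereas MSI1 and DACH1 move to 1.07 and 1.16 at day 8.

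The change of the genotype difference between days was tested itself. Between days 4 and 8, 2 of 10 passed, both in the upward direction, where 0.788% of all genes passed upward and 1.11% in either direction: DACH1 by 1.396 (SE 0.208, limma adjusted p = 0.0273) and MSI1 by 1.33 (SE 0.213, adjusted p = 0.0351), beside a median of 0.12 over all genes. Each of these calls is close to the threshold. That of DACH1 ended without any 1 of 7 libraries (WT1, WT2, S13 and S23 at day 4 and WT1, WT2 and S13 at day 8; adjusted p from 0.0536 to 0.0976). That of MSI1 ended without any 1 of 9, namely both wild-type libraries of day 0, WT1, WT2 and S13 of day 4 and all 4 libraries of day 8 (0.0602 to 0.121). Both ended with median-of-ratios scaling (0.056 each) and with days 4 and 8 alone (0.0749 for DACH1 and 0.0557 for MSI1), and the log2 values stayed between 1.16 and 1.56 in all 22 alternatives. Between days 0 and 4, 0 of 10 passed, against 0.408% of all genes, and 2 of 10 were at an unadjusted p under 0.05 (limma), against 12% of all genes. ZBTB16 (-0.88, adjusted p = 0.188) and PROM1 (-1.31, adjusted p = 0.294) had the lowest values there.

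The steps in time describe how the markers came up. From day 0 to day 4, 10 of 10 changed in SOX21-/-, 9 rising and PROM1 falling, and 9 of 10 rose in wild type, to be read beside the shares of all genes given above. The median step over all genes was 0.72 on the log2 scale in SOX21-/- and 0.91 in wild type. PRTG rose by 6.97 in SOX21-/- and 7.19 in wild type, and LIX1 by 5.82 and 6.15, both far above that median. NES rose by 4.54 and 4.33, DACH1 by 3.49 and 3.83, and ZBTB16 by 2.94 and 3.82. FABP7 rose by 3.01 and 2.89 and VIM by 2.11 and 2.11; with median-of-ratios scaling FABP7 rose by 1.90 and 1.57 and VIM by 0.90 and 0.68. For DACH1, ZBTB16 and LIX1, whose group means were at most 0.135 TPM at day 0, the size depends on the pseudocount, and with 0.1 in its place they came to 5.66, 5.78 and 8.12 in SOX21-/- and 6.49, 6.52 and 9.12 in wild type.

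The sizes of the other steps also moved with the scaling. MSI1 rose by 1.69 in SOX21-/- and 1.96 in wild type, and by 0.52 and 0.58 after median-of-ratios scaling (adjusted p = 0.014 and 0.00802). MSI2 passed upward as deposited, at 1.095 and 1.671 (adjusted p = 0.00783 and 0.000671), but after that scaling its values were -0.10 and 0.27 (0.786 and 0.417), so no direction is given for it in SOX21-/-, and in wild type it was positive but did not pass; in SOX21-/- its call also ended without S23 at day 0 (0.0598) or at day 4 (0.0599). PROM1 fell by 1.67 in SOX21-/- (SE 0.309, adjusted p = 0.0015). At day 0 only VIM had a higher mean TPM among the 10 in either genotype. In wild type the step of PROM1 was -0.36 (adjusted p = 0.33), and it passed there as a fall only after rescaling, at -1.77 with median-of-ratios, -1.07 with quantile normalization and -0.99 within nuclear protein-coding genes (0.00167, 0.0165 and 0.00982).

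From day 4 to day 8 the shift of all genes was smaller, with a median of 0.20 in SOX21-/- and 0.03 in wild type. In SOX21-/-, 6 of 10 rose, where 19% of all genes rose (26.1% changed in either direction), and in wild type 4 of 10 rose, where 7.62% of all genes rose (12.6% in either direction). FABP7 rose by 2.97 in SOX21-/- and 2.40 in wild type, ZBTB16 by 2.50 and 1.76, VIM by 0.87 and 0.97 and NES by 0.70 and 0.43. The FABP7 step in wild type ended without any 1 of WT1 or WT2 at day 4 or day 8 (adjusted p from 0.0672 to 0.0849), and that of NES without WT1 at day 4 (0.0811) or day 8 (0.079). MSI1 and DACH1 rose in SOX21-/- by 1.67 and 1.73, while their wild-type values of 0.33 and 0.34 did not pass (adjusted p = 0.193 and 0.181). PRTG was 0.02 in SOX21-/- (95% interval -0.18 to 0.23) and 0.32 in wild type (adjusted p = 0.0548, and among others 0.0251 without either wild-type library of day 0). LIX1 was 0.24 in SOX21-/- and -0.50 in wild type (adjusted p = 0.255 and 0.0505), the wild-type value passing without S13 (0.0293) or S23 (0.0288) at day 8 and with median-of-ratios scaling (0.0299) among others.

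**Figure D3:**
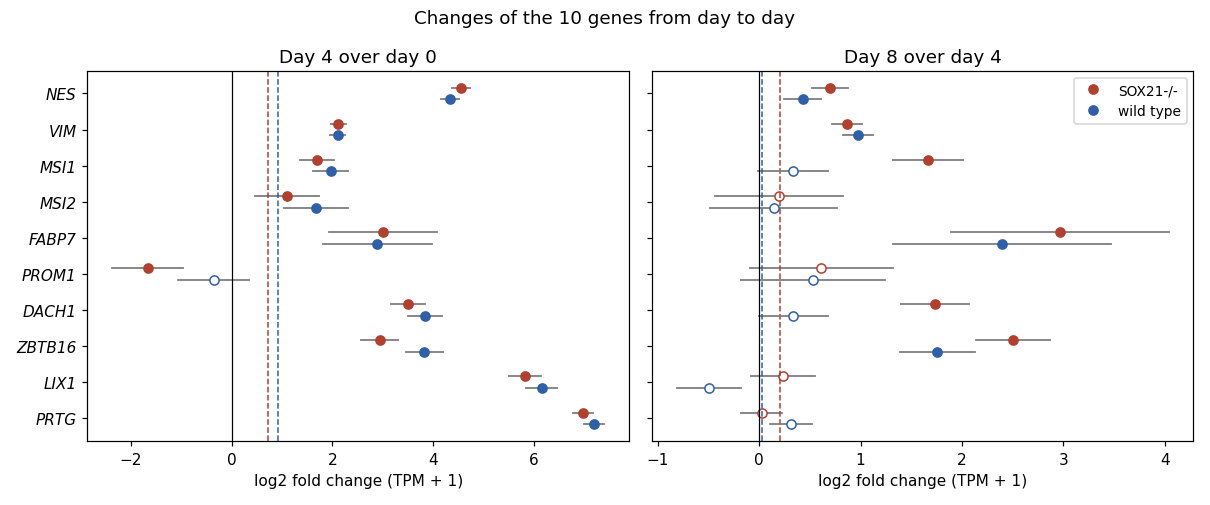
Points are log2 fold changes of TPM + 1 for day 4 over day 0 (left) and day 8 over day 4 (right), SOX21-/- (red) above wild type (blue), with 95% intervals; filled points passed and dashed lines are the medians of all genes tested in each genotype. At the later step MSI1 and DACH1 stand at 1.67 and 1.73 in SOX21-/- against 0.33 and 0.34 in wild type.

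The order of levels over the 6 groups differed from gene to gene. NES, VIM, MSI1, FABP7, DACH1 and LIX1 had their highest mean in SOX21-/- at day 8, whereas MSI2, PROM1, ZBTB16 and PRTG had theirs in wild type at day 8. For LIX1 this group (74.9 TPM) overlapped the next in order, wild type at day 4 (72.1 TPM), and the 4 groups of MSI2 at days 4 and 8 could not be put in order, since neighbours overlapped. For PROM1, wild type at day 8 and both genotypes at day 0 overlapped in turn, and the lowest groups, SOX21-/- at days 4 and 8, overlapped each other. By mean TPM in SOX21-/- at day 8, VIM ranked 125, NES 190, FABP7 240 and PRTG 248 among 19804 nuclear protein-coding genes, while PROM1 ranked 6204 there and 2863 in wild type. MSI1 ranked 714 in SOX21-/- and 1825 in wild type at day 8, and DACH1 3955 and 7356.

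Related genes of the same families were described from a list of 11, of which 10 were tested. FABP5, the epidermal fatty acid-binding protein, had 44.5 and 44.0 TPM in SOX21-/- at day 8 against 104 and 118 TPM in wild type (log2 fold change -1.30, SE 0.106, limma adjusted p = 0.00102), and 139 and 120 TPM in SOX21-/- against 140 and 122 TPM in wild type at day 4. Its difference changed between those days (-1.28, adjusted p = 0.0128, a call that ended with days 4 and 8 alone and with the replicate block, at up to 0.0646), and it lay below wild type at day 8, where FABP7 lay above. DACH2 had 0.503 and 0.511 TPM in SOX21-/- against 1.89 and 3.74 TPM in wild type at day 8 (-1.30, adjusted p = 0.0454), low levels beside those of DACH1 and with the opposite direction. That call held in 5 of 21 alternatives and ended, among others, without WT2, S13 or S23 at day 8 (adjusted p up to 0.281). The day 8 call of FABP5 ended only with day 8 libraries alone (0.0987). Among relatives of PRTG, IGDCC3 had 44.4 and 53.0 TPM in SOX21-/- at day 4 against 14.8 and 15.5 TPM in wild type (1.62, SE 0.123, adjusted p = 0.00487), and 87.1 and 77.7 TPM in SOX21-/- against 103 and 95.7 TPM in wild type at day 8, and its difference changed both between days 0 and 4 (1.73, adjusted p = 0.00661) and between days 4 and 8 (-1.88, adjusted p = 0.00638). The changes of IGDCC3 ended with the replicate block (0.0678 and 0.0517), and its day 4 call with the block or with day 4 alone (up to 0.153). NEO1, neogenin, had 45.7 and 55.7 TPM in SOX21-/- against 71.1 and 76.8 TPM in wild type at day 4 and 106 and 113 TPM in SOX21-/- against 80.1 and 74.5 TPM in wild type at day 8. Its change between those days passed (1.04, adjusted p = 0.0386) in the deposited scale and in 8 of 22 alternatives, ending without WT1 or WT2 at day 0, without WT1, WT2 or S13 at day 4 and without any 1 library of day 8 (adjusted p up to 0.129). In all, 1 of 10 was higher at day 4, 2 of 10 were lower at day 8 and 0 of 10 passed at day 0. At an unadjusted p under 0.05 were 1, 3 and 4 at days 0, 4 and 8.

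**Figure D4:**
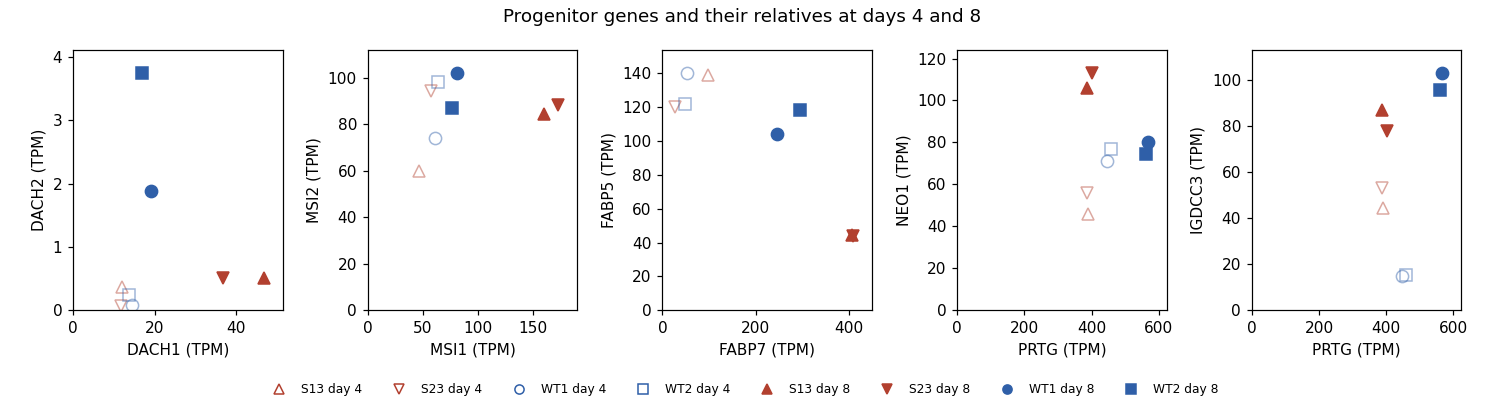
Each panel plots the TPM of a relative against that of the gene named on the x axis at day 4 (open) and day 8 (filled), with SOX21-/- in red and wild type in blue. At day 8 the SOX21-/- libraries lie right of and below wild type for DACH1 and DACH2 and for FABP7 and FABP5, and left of and above it for PRTG and NEO1.

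Of 16 other rosette and early progenitor genes, 1 was higher and 0 lower in SOX21-/- at day 4, where 0.775% of all genes passed. At day 8, 3 were higher and 0 lower, against 2.79% of all genes, and 0 passed at day 0. At an unadjusted p under 0.05 were 0, 7 and 7 at days 0, 4 and 8, the later 2 against 16.9% and 16.3% of all genes. Their median was 0.13 at day 4 and 0.23 at day 8, beside -0.12 and 0 over all genes. PLAGL1, a zinc finger factor, had 109 and 107 TPM in SOX21-/- at day 8 against 27.6 and 23.9 TPM in wild type (2.03, limma adjusted p = 0.00355). NR2E1, a nuclear receptor that keeps neural stem cells dividing, had 6.43 and 9.53 TPM in SOX21-/- against 1.08 and 0.207 TPM in wild type (2.48, adjusted p = 0.00444). FEZF2, a forebrain transcription factor, had 128 and 122 TPM in SOX21-/- against 44.2 and 28.1 TPM in wild type at day 8 (1.79, adjusted p = 0.0421) and 11.6 and 29 TPM in SOX21-/- against 2.52 and 2.19 TPM in wild type at day 4 (2.54, adjusted p = 0.0303). The FEZF2 calls ended in 11 alternatives at day 4 and 15 at day 8, including those without WT1 or WT2 of the same day, and at day 8 also without S13 or S23 (adjusted p up to 0.298 at day 4 and 0.221 at day 8). Those of PLAGL1 and NR2E1 ended only with day 8 libraries alone (0.0519 and 0.229).

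Apical polarity and junction proteins hold the cells of a rosette around its lumen. Of 13 such genes tested, 1 was higher and 1 lower at day 8, with a median of 0.14, and 0 passed at days 0 and 4. At an unadjusted p under 0.05 were 0, 4 and 5 at days 0, 4 and 8. CRB2, a Crumbs polarity protein, had 91.6 and 108 TPM in SOX21-/- at day 8 against 52.4 and 48.2 TPM in wild type (0.97, limma adjusted p = 0.00987). Its difference changed between days 4 and 8 (1.45, adjusted p = 0.0199). The day 8 call ended without WT2 or S23 at day 8, and that of the change also without WT1 or WT2 at day 4 (adjusted p up to 0.189 and 0.079 under all alternatives). CRB1 had 0.484 and 0.619 TPM in SOX21-/- against 3.09 and 2.53 TPM in wild type (-1.29, adjusted p = 0.0246), a call that ended without any 1 of the 4 day 8 libraries (adjusted p up to 0.182). CRB2 was also the gene nearest to DACH1 in pattern over the 12 libraries.

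Of 12 radial glia and astroglia genes tested, 0, 2 and 4 were at an unadjusted p under 0.05 at days 0, 4 and 8. Among these 12, 0 were higher and 1 was lower at days 4 and 8, and 0 passed at day 0. That 1 was PTPRZ1, a receptor phosphatase of radial glia, at 231 and 241 TPM in SOX21-/- against 309 and 289 TPM in wild type at day 8 (-0.34, limma adjusted p = 0.0437) and 131 and 120 TPM in SOX21-/- against 177 and 175 TPM in wild type at day 4 (-0.49, adjusted p = 0.0303). The calls held in 7 and 12 of 22 alternatives at days 8 and 4, and both ended without any 1 of the 4 libraries of the day tested (adjusted p up to 0.224 and 0.241).

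Markers of other cell types were read beside these values. The 10 neuron markers summed to 155 and 172 TPM in SOX21-/- against 271 and 288 TPM in wild type at day 4, and to 293 and 206 TPM in SOX21-/- against 378 and 372 TPM in wild type at day 8, so the SOX21-/- sums were the lower at both days. Of the 9 tested, 0 passed at day 4 (3 at an unadjusted p under 0.05) and 1 was lower at day 8: DCX, a microtubule protein of young neurons, with 4.92 and 2.12 TPM in SOX21-/- against 20.7 and 25.7 TPM in wild type (-2.49, limma adjusted p = 0.00554; not passed without WT2 at day 8, with adjusted p up to 0.229 over the alternatives). At day 4, 6 of the 10 averaged at least 1 TPM in SOX21-/- and 7 in wild type, and at day 8 these were 9 and 8. Of the 9 tested, 5 were at an unadjusted p under 0.05 at day 8 (limma). Of 6 tested neural crest markers 0 passed at any day (0, 2 and 0 at an unadjusted p under 0.05 at days 0, 4 and 8). Sums of the 10 mesoderm and endoderm markers did not exceed 2.91 TPM in any library, and the 1 tested did not pass at any day (1 at an unadjusted p under 0.05 at day 8). Of 3 tested non-neural ectoderm markers 0 passed (0, 1 and 2 at an unadjusted p under 0.05 at days 0, 4 and 8). Of 3 tested endothelial markers 1, TEK, was lower at day 8, at 4.10 and 5.76 TPM in SOX21-/- against 10.2 and 11.8 TPM in wild type (-1.03, adjusted p = 0.0285), a call that held in 12 of 22 alternatives and ended without S13, WT1 or WT2 at day 8 among others (adjusted p up to 0.277). The part of these markers in the values of the 10 genes was not tested.

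Likeness of pattern was measured as the root mean square difference of log2(TPM + 1), each gene centred on its own mean, over the 12 libraries and among 10583 protein-coding genes of at least 5 TPM on average. It is a description over libraries that share days and genotypes. The nearest gene was CDH2, the neural cadherin, for NES (0.223), FBXL20 for VIM (0.175), TOX3 for MSI1 (0.175), TRAK1 for MSI2 (0.145) and ARMCX3 for FABP7 (0.498). It was STMN3 for PROM1 (0.296), CRB2 for DACH1 (0.255), ZEB1 for ZBTB16 (0.304), SOX21 for LIX1 (0.338) and SMOC1 for PRTG (0.324). Among the 10 themselves, VIM and MSI1 were the closest pair (0.36), NES and DACH1 the next (0.452), and PROM1 and PRTG the farthest apart (3.75).

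The labels do not say whether strand was used in quantification, so genes that overlap a member cannot be told apart from it with certainty. There were 17 overlapping genes or pseudogenes of the 10, among them VIM-AS1, LIX1-AS1 and FABP7P1, and the highest value of any in any library was 4.89 TPM. Of these, 10 lay on the strand opposite to 6 of the members and reached at most 2.40 TPM.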

How the data were processed

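Poly(A) RNA sequencing values were analysed for 12 libraries, 2 in each of 6 groups given by genotype and day in the labels. The authors deposited TPM values per gene for all libraries in 1 table; Salmon 0.8.2, CASAVA 1.7 and the hg38 build are named per the submitters' processing notes. Strand use and annotation release are not given in the sources used here, and the sequencers in the labels are not tied to libraries. TPM keeps no read depth, so no counting error can be given, and a rise of some genes lowers the share of others. The table held 0 columns of other series.

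Genes with at least 1 TPM in at least 2 libraries (24248 of 58219) were fitted as log2(TPM + 1) with limma 3.58.1 (R 4.3.3): 6 group means, empirical Bayes with a variance trend, 6 residual and 2.29 prior degrees of freedom, 9 comparisons, two-sided, Benjamini-Hochberg adjustment over all genes of a comparison. The procedure was also run on simulated data, drawn as independent normal noise around group means with the variances of this same fit. Such data meet the assumptions of the test, so they cannot check shifts of scaling or shared cultures. Intervals are 95% intervals of the moderated estimate. Each fit was repeated with each library left out in turn, with only the days compared, with the replicate block, with robust moderation and without the trend. It was also repeated with quantile normalization, rescaling to nuclear protein-coding genes or median-of-ratios scaling, with 0.1 as pseudocount, and with the filter raised to 5 TPM or dropped. The members and lists were chosen with earlier results of these data known. All 10 members and SOX21 are named. Of the other lists, genes that passed in a comparison involving genotype are named, as are the nearest genes in pattern. Gene positions are from GENCODE v29 (GRCh38) and promoter sequences from RefSeq (GRCh38.p14).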

Additional observations from a re-analysis of the deposited data

Results flagged for a closer look

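For 2 of the 10 genes the change of the genotype difference between days 4 and 8 passed in the main fit (interaction of genotype and day, limma). For DACH1 the log2 fold change, SOX21-/- over wild type, was 1.16 at day 8 and -0.24 at day 4, a change of 1.396 (adjusted p = 0.0273). For MSI1 it was 1.07 at day 8 and -0.27 at day 4, a change of 1.33 (adjusted p = 0.0351). Both calls were close to the threshold. They ended with median-of-ratios scaling (limma adjusted p = 0.056 each) and with the replicate block (0.088 for DACH1 and 0.112 for MSI1), among other alternatives. In TPM as deposited, both SOX21-/- libraries lay above both wild-type libraries at day 8 and below both at day 4 for each gene. The day 4 median over all genes tested was -0.12. With median-of-ratios scaling the day 4 log2 fold changes were -0.07 for DACH1 and -0.09 for MSI1, so the day 4 gap depends on the scaling.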

How the results depend on the processing

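Over 22 alternatives to each of 90 results (10 genes in 9 comparisons), 1836 of 1980 values kept their direction and their side of the threshold, 89 called values were no longer past it (35 of them under settings other than leaving out a library), 15 passed newly and 40 changed sign. Of those 40, 1 was of a called result: the step of MSI2 in SOX21-/- to day 4 was -0.10 with median-of-ratios scaling. The causes were not tested, other than that fits of the compared days alone or without a library hold fewer samples. That scaling moved the median of all genes for this step to 0.0126 in SOX21-/- and 0.0362 in wild type, and the day 4 genotype median to 0. With 2 libraries a group, most calls rest on an error shared over groups, and a library left alone in its group is assumed to vary like the others.

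The 10 genes gave 2 calls at day 4, but 1 with a pseudocount of 0.1 or median-of-ratios scaling and 0 with no filter, quantile normalization, no trend, robust moderation or day 4 alone (0 to 2 without a library). At day 8 they gave 3, but 0 with day 8 alone (0 to 3 without a library). The wild-type step to day 8 gave 4 (2 to 5 without a library). The change of the difference between days 4 and 8 gave 2, but 1 with a pseudocount of 0.1, no filter or no trend and 0 with median-of-ratios scaling or those days alone (0 to 2 without a library).

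Over all genes, the 93 calls at day 0 became 235 with no filter, 153 with median-of-ratios scaling, 10 within protein-coding genes and 154 with day 0 alone (60 to 157 without a library). The 188 at day 4 became 107 with robust moderation and 0 with day 4 alone (30 to 207). The 676 at day 8 became 97 with day 8 alone (225 to 765). The wild-type step to day 4 gave 10365 within protein-coding genes in place of 15931, and that to day 8 gave 2019 with no filter in place of 3058 (1097 to 3183). The SOX21-/- step to day 8 gave 3776 to 6138 without a library in place of 6336. The 99 changes between days 0 and 4 became 58 with a filter at 5 TPM, 283 with no filter and 25 within protein-coding genes (45 to 129). The 270 between days 4 and 8 became 154 with a pseudocount of 0.1, 115 with median-of-ratios scaling and 135 with those days alone (66 to 245).

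The replicate block (library numbers shared across days) gave 52, 0 and 382 genes between genotypes at days 0, 4 and 8, 22 changes between days 0 and 4 and 17 between days 4 and 8. Of the 10 genes it called 0 at day 4 and 0 for the change between days 4 and 8, and 2 at day 8, where the call of PRTG ended (adjusted p = 0.0635). The numbers are not stated to pair the libraries, and libraries of the same number did not deviate together from their group means (r from -0.00603 to 0.0712 over 24248 genes).

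Values that changed sign without having passed were, with median-of-ratios scaling, MSI1 at day 0 (-0.029), NES (0.11) and MSI2 (0.00043) at day 4, MSI2 (-0.062), LIX1 (-0.0225) and PRTG (-0.24) in the SOX21-/- step to day 8, and MSI2 (-0.12) and PROM1 (-0.084) in the change between days 4 and 8. They were also MSI1 at day 0 within protein-coding genes (-0.0069), and MSI2 (-0.11) and PROM1 (-0.24) in that change with quantile normalization. Without single libraries, the genotype values ran from -0.21 to 0.22 for MSI1, -0.22 to 0.034 for FABP7, -0.25 to 0.32 for PROM1, -0.11 to 0.024 for ZBTB16 and -0.13 to 0.12 for PRTG at day 0, and from -0.50 to 0.14 for MSI2 and -0.90 to 0.95 for FABP7 at day 4. The steps to day 8 ran from -0.12 to 0.52 for MSI2 and -0.0050 to 0.052 for PRTG in SOX21-/-, and from -0.061 to 0.34 for MSI2 in wild type. The changes of the difference ran from -0.049 to 0.066 for VIM and -0.81 to 1.04 for FABP7 between days 0 and 4, and from -0.26 to 0.38 for MSI2, -0.36 to 1.496 for FABP7 and -0.30 to 0.47 for PROM1 between days 4 and 8.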
